A study of Mus musculus with 31 samples.

Results

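Mouse neural stem cells kept in culture were set against EGFP-positive cells taken fresh from the young dentate gyrus, using 6 of the series' 31 samples. The 3 Control culture libraries came from ICR mouse cortex taken at embryonic day 11, passaged more than 20 times in DMEM/F-12 medium with N2, 20 ng/ml bFGF and 20 ng/ml EGF, and carrying a lentivirus for the M2rtTA transactivator alone. The 3 Control P10 libraries came from C57BL/6 Nestin-EGFP mice that had received water on postnatal days 7, 8 and 9. At postnatal day 10, EGFP-positive dentate gyrus cells were collected by flow sorting, with 50000 cells of 1 mouse in each library. In these mice a green fluorescent protein is driven by nestin gene sequences, so the sort can also keep daughter cells in which the protein persists. The labels do not say whether the 3 culture libraries came from separate cultures, so for them the p-values measure a spread that may be technical. Brain region, age, mouse strain, culture, unit and gene annotation all differed between the groups and cannot be told apart. By the sex chromosome genes described below, the groups were not matched for sex either.

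The libraries were chosen by their titles alone. The deposited culture files hold 24322 gene names and the sorted-cell files 24062. Of these, 23727 names were in both, and 22531 remained after names of small RNA genes were dropped. Each library was then rescaled to sum to 1000000 over these genes, and values below are on that scale, which is corrected for gene length and therefore allows levels of different genes to be compared. The 11894 genes with a mean of at least 5 over the 6 libraries were tested. A gene near 0 in either group could reach that mean only through the other, which fixed the direction of its call. Differences are in log2(value + 1), Control culture minus Control P10, with the standard error (SE), and understate the change of low genes. A gene was called higher or lower when limma placed its difference beyond 2-fold in that direction, at a Benjamini-Hochberg adjusted p below 0.05 over all 11894 genes.

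Neural stem cells of the embryonic cortex are radial glia, which divide at the ventricle and make neurons first and glia later. In the dentate gyrus a population of such cells persists after birth. There it gives rise through Eomes-positive progenitors to granule neurons, which keep the transcription factor Prox1. Kept in EGF and FGF, embryonic stem cells can divide for many passages, and growth under those conditions is known for its dependence on cyclin D and on the control of the CDK inhibitors encoded by Cdkn2a and Cdkn1a.

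Libraries of a group resembled each other closely. Spearman correlations over the tested genes were 0.996 to 0.9968 among culture libraries, 0.9863 to 0.9935 among P10 libraries and 0.6337 to 0.6638 across the groups. Culture libraries had 15243 to 15348 of the 22531 kept genes above 0, and P10 libraries 17138 to 17583. Small RNA names took 12.1% to 13.6% of the culture totals and 0.708% to 0.734% of the P10 totals before they were dropped. Read counts were not used here. From the steps between low values, culture replicates 2 and 3 had 0.974 and 0.925 of the depth of replicate 1, and P10 replicates 2 and 3 had 0.804 and 1.139 of theirs.

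The 2 groups differed across much of the genome. In Control culture, 1039 genes (8.74%) were higher and 3478 (29.2%) lower, which makes 4517 genes (38%) past the test. The values of the groups did not overlap for 10650 genes (89.5%), so a gap between the groups sets no single gene apart. The median difference of all tested genes was -0.51, and list medians are given below beside that value. It depended on the scaling, at -0.04 after median-of-ratios scaling and 0.12 after quantile normalization. Higher genes made up 23% of the calls as scaled here, 43% after median-of-ratios scaling and 50.8% after quantile normalization. Large differences lay mostly on the lower side: 1214 genes were lower by at least 3 log2 units, and 136 were higher by as much.

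**Figure D1:**
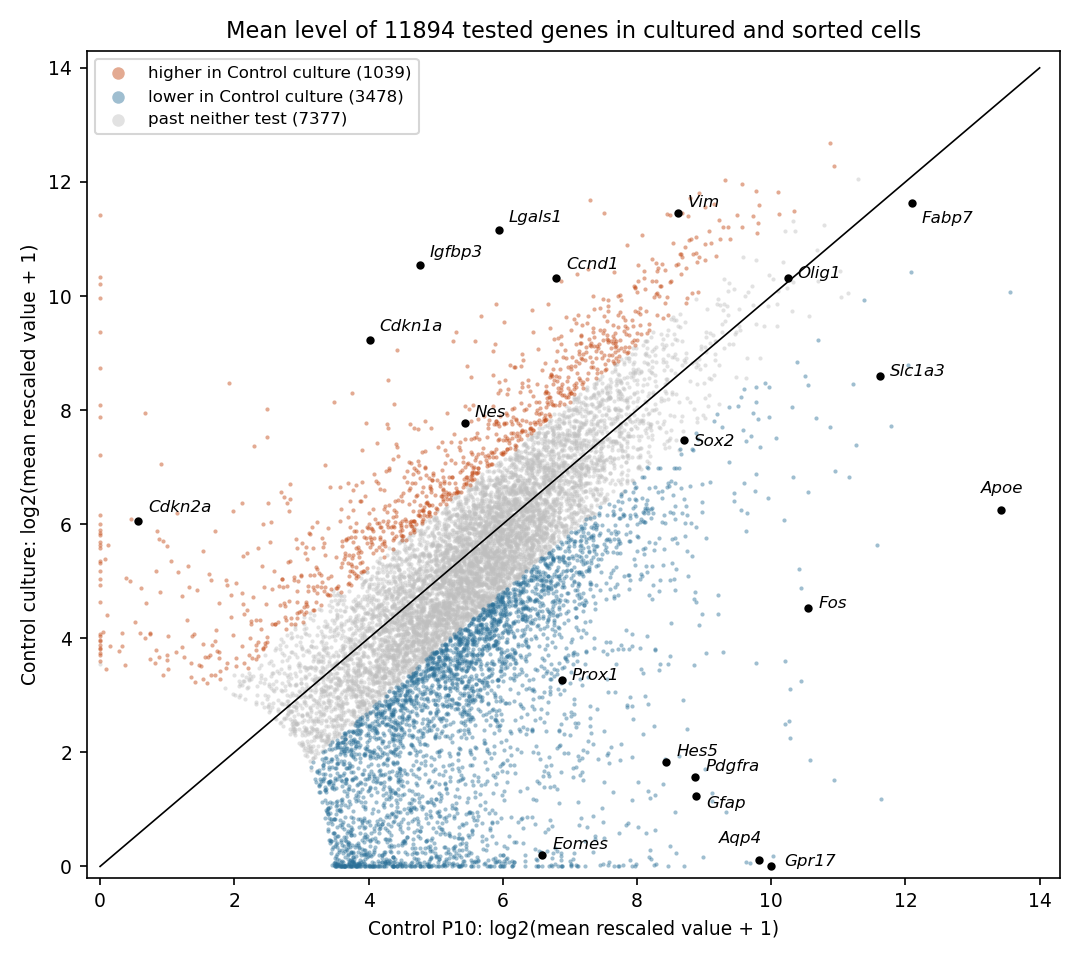
Mean rescaled level of each tested gene, as log2(mean + 1), in Control P10 (horizontal) and Control culture (vertical). Orange points are the 1039 genes higher in culture, blue points the 3478 lower and grey points the rest, and the line marks equal levels. Named examples include Cdkn2a, Igfbp3 and Lgals1 far above the line and Aqp4, Gpr17 and Apoe far below it.

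General markers of neural stem cells were present in both groups, but at different levels. Of 29 tested radial glia and stem cell markers, 3 were higher in culture and 18 lower, with a median difference of -1.61 against -0.51 for all genes. Nes, the intermediate filament nestin whose sequences drive the reporter, stood at 225, 205 and 227 in Control culture, against 44.9, 36.5 and 45.6 in Control P10. Every culture library was well above every P10 library (log2 difference 2.35, SE 0.09, adjusted p = 2.8e-08). Vim, the intermediate filament vimentin, had values of 2906, 2770.2 and 2789.9 in Control culture, against 388, 313 and 469 in Control P10. It was among the most abundant culture transcripts and differed by 2.87 (SE 0.11, adjusted p = 1.7e-08). The third marker that was higher was Sox3, an early neural transcription factor, with 138 on average in culture and 52.8 in P10 (log2 difference 1.37, SE 0.08, adjusted p = 1.0e-03).

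Sox2, the transcription factor that maintains neural stem cells, was abundant in both groups, at 173, 176 and 182 in Control culture, against 446, 366 and 433 in Control P10. The culture values were the lower ones (log2 difference -1.22, SE 0.07, adjusted p = 0.018), but this call did not hold after median-of-ratios scaling, where the difference was -0.73. Fabp7, a fatty acid binding protein of radial glia, was one of the most abundant transcripts of both groups, with 2844, 3482 and 3142 in Control culture, against 4357, 3789.7 and 4941 in Control P10. The ranges did not overlap, yet the difference of -0.46 (SE 0.10) was within 2-fold. Pax6 differed by -0.69 and Hes1 by -0.24, and neither passed the test.

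The markers that were lower in culture included those of postnatal and adult radial glia-like cells. Gfap, the glial filament of adult dentate stem cells and astrocytes, was at 1.33, 1.66 and 1.06 in Control culture, against 476, 379 and 558 in Control P10. It was close to absent from all 3 culture libraries (log2 difference -7.64, SE 0.14, adjusted p = 1.7e-12). Hes5, a Notch effector, had 1.42, 3.97 and 2.33 in Control culture, against 361, 376 and 300.3 in Control P10, and Prom1, the membrane protein CD133, had 0.316, 0.174 and 0.263 in Control culture, against 62.1, 72 and 63.1 in Control P10. These differed by -6.66 (SE 0.20) and -5.74 (SE 0.11). Hopx, a homeodomain protein of quiescent dentate stem cells, averaged 38.7 ± 2.55 in culture and 365 ± 56.5 in P10 (SD, n = 3 each) (log2 difference -3.19, SE 0.10, adjusted p = 1.3e-09). Lpar1, a lysophosphatidic acid receptor used to mark dentate stem cells, differed by -4.61 (SE 0.16, adjusted p = 6.9e-10). Several of these markers are shared with astrocytes, whose own marker list summed to 3159 to 3433 in culture and 35675 to 42551 in P10. The part of astrocytes in these differences was not tested. In bulk libraries, fewer cells of a type and less RNA per cell cannot be told apart.

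**Figure D2:**
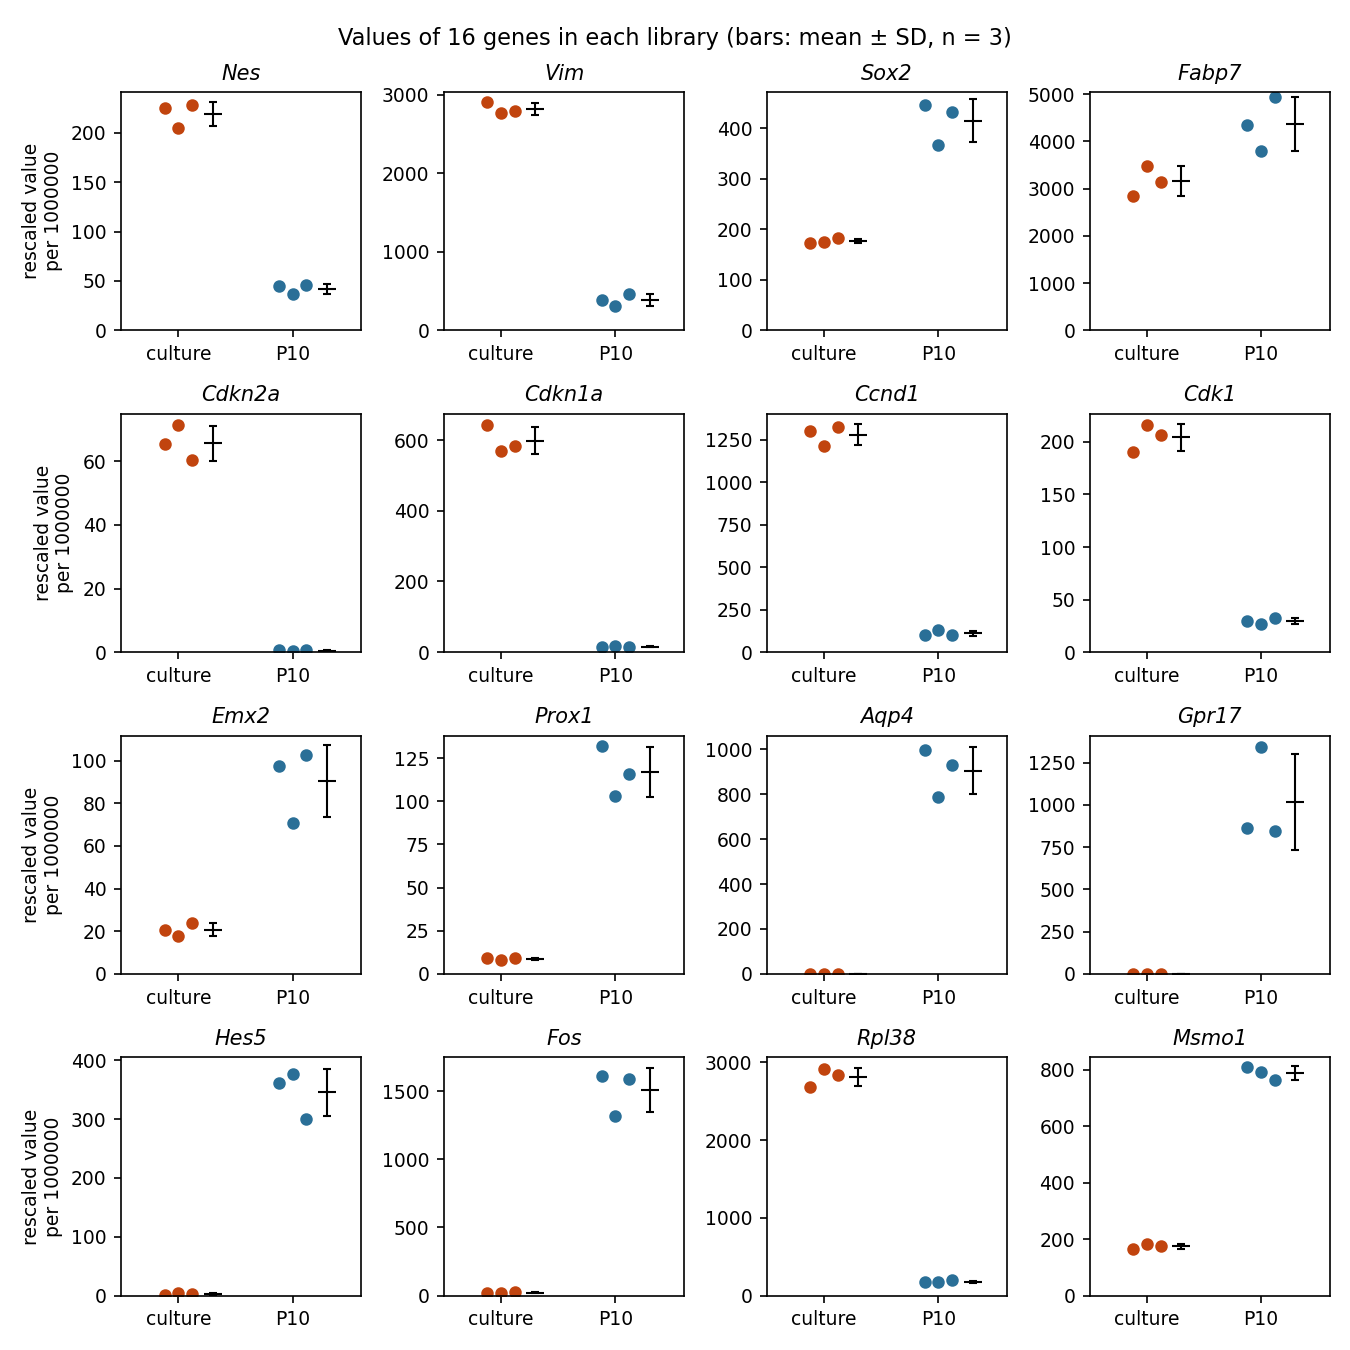
Rescaled values of 16 genes in each Control culture library (orange, left) and each Control P10 library (blue, right), with the mean and SD of 3 libraries as a black bar. Nes, Vim, Cdkn2a, Cdkn1a, Ccnd1, Cdk1 and Rpl38 lie higher in culture, and Emx2, Prox1, Aqp4, Gpr17, Hes5, Fos and Msmo1 lower, with no overlap.

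The regional transcription factors of the forebrain were lower in culture. Of 15 tested telencephalic and cortical patterning factors, 14 were lower and none was higher, with a median of -2.93. Emx2, a dorsal factor, was still measurable at 20.7, 17.9 and 23.6 in Control culture, against 97.6, 70.9 and 102 in Control P10 (log2 difference -2.06, SE 0.14, adjusted p = 1.6e-05). It was lower in every culture library. Emx1 and Fezf2, cortical factors, were listed at 0 in all 3 culture libraries and averaged 91.2 and 91.4 in P10. Id4, a regulator of progenitor timing, had 0.38, 0.68 and 0.604 in Control culture, against 332, 269 and 324 in Control P10 (log2 difference -7.64, SE 0.11, adjusted p = 3.7e-13). Dmrta2 was the tested member of the list that did not pass, with a difference of -1.21.

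Among ventral telencephalic factors, most genes were too low to test (5 of 17 were tested). Gsx1, Dlx1 and Dlx2, which specify ventral progenitors and interneurons, averaged 19.3, 10.2 and 11.3 in P10 and were at or near 0 in culture. All 3 were called lower, and Dlx1 lost its call after quantile normalization (-1.35, adjusted p = 0.28). They entered the test through their P10 values alone, so a call of higher was not possible. Olig1 and Olig2, which in the embryo mark ventral progenitors and later the oligodendrocyte lineage, behaved differently. Olig1 had 1357, 1244 and 1214 in Control culture, against 1067, 1503 and 1066 in Control P10, and Olig2 had 578, 575 and 585 in Control culture, against 462, 700.5 and 475 in Control P10. Their ranges overlapped and their differences of 0.09 and 0.11 did not pass the test. Sox10, which acts with Olig2 in the oligodendrocyte lineage, was listed at 0 in culture and had 338, 557 and 352 in P10.

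Hox genes were low in both groups. Of the 39 Hox genes, which pattern hindbrain and spinal cord, none reached the level for testing, 31 were listed at 0 in every culture library and 32 in every P10 library. Their sum was at most 0.514 in a culture library and 0.346 in a P10 library. Of 22 midbrain, hindbrain and dorsal factors 3 were tested. Gbx2, a factor of the anterior hindbrain, was higher, with 14.7, 11.8 and 14 in Control culture, against 0.11, 0.091 and 0.126 in Control P10 (log2 difference 3.70, SE 0.14, adjusted p = 2.8e-09). The Control 8w libraries hold cells sorted from the same reporter line, water-treated as pups, at 8 weeks (30000 cells each), and libraries 2 and 3 agree so closely that they were counted as 1 sample. Only 11067 to 11291 of the kept genes were above 0 in them, fewer than in the P10 or culture libraries. Set against them with the same culture libraries, Gbx2 lost its call (1.95, adjusted p = 0.62). Zic2 was lower, at 21.1 on average in culture and 102 in P10 (log2 difference -2.21, SE 0.11, adjusted p = 6.1e-07), and Zic1, a related factor, differed by -1.09 and did not pass. Between Egr1 culture (the same cells with an added lentivirus for Flag-tagged Egr1) and MDZ P10 (mice given midazolam, a benzodiazepine sedative, at 10 mg/kg on the same days) 3 of 5 tested were higher and 2 lower, where 9.12% and 32.3% of all genes were.

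Genes that mark early and late phases of cortical development gave a mixed early and a clear late picture. Of 10 tested genes of early progenitors, 5 were higher and 2 lower. The higher ones were the RNA-binding proteins Igf2bp2 and Igf2bp3, cyclin Ccnd1 and the CDK inhibitor loci Cdkn2a and Cdkn2b, the last 2 of which are not early markers and are known to rise as stem cells age. Igf2bp2 had 29.6, 27.8 and 29 in Control culture, against 1.2, 2.46 and 0.874 in Control P10 (log2 difference 3.62, SE 0.19, adjusted p = 7.7e-08). Hmga2, a chromatin protein of young stem cells, was too low to test, with 2.72, 2.35 and 3.03 in Control culture, against 0.205, 0.208 and 0.176 in Control P10. Lin28b and Igf2bp1, further fetal genes, were listed at 0 in every culture library. Dach1 and Mycn were lower, and Mycn had 0.52, 0.769 and 0.858 in Control culture, against 65, 45.8 and 58.2 in Control P10 (log2 difference -5.05, SE 0.14, adjusted p = 1.1e-10).

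Of 21 tested genes of late and gliogenic progenitors, 17 were lower, none was higher and the median was -3.19. After median-of-ratios scaling 12 were lower. The nuclear factor I family, which drives the switch to gliogenesis, had all 4 members in this list lower. Nfix had 33, 30.01 and 31.9 in Control culture, against 412, 301 and 406 in Control P10 (log2 difference -3.50, SE 0.11, adjusted p = 6.4e-10). Nfia had 22.7, 23 and 26.1 in Control culture, against 81.3, 69.6 and 83.2 in Control P10 (log2 difference -1.66, SE 0.09, adjusted p = 2.4e-05), and its call was lost after median-of-ratios scaling, where the difference was -1.19.

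Genes of the neuronal lineage of the dentate gyrus were lower in culture. Of 30 tested granule lineage and neuroblast genes, 28 were lower, with a median of -5.02. Prox1, the granule neuron factor, had 9, 7.77 and 9.14 in Control culture, against 132, 103 and 116 in Control P10 (log2 difference -3.61, SE 0.10, adjusted p = 2.8e-10). Eomes, a marker of intermediate progenitors, had 0.2, 0.164 and 0.0835 in Control culture, against 96.7, 65.2 and 123 in Control P10 (log2 difference -6.34, SE 0.19, adjusted p = 1.2e-10). Both stood apart in all libraries. Neurod1, a proneural factor, averaged 0.496 ± 0.0571 in culture and 211 ± 40.9 in P10 (SD, n = 3 each) (log2 difference -7.13, SE 0.13, adjusted p = 2.6e-12). Dcx, the microtubule protein of migrating neuroblasts, was listed at 0 in every culture library and had 119, 107 and 124 in P10. Neurod2, Neurod6, Tbr1, Nhlh2 and Fezf2 were likewise listed at 0 in culture. A single member was higher. Gap43, a growth cone protein that glial cells can also make, had 853, 866 and 868 in Control culture, against 80.2, 102 and 74 in Control P10 (log2 difference 3.34, SE 0.10, adjusted p = 4.7e-10).

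Genes of synapses and mature neurons were lower for 16 of 20 tested, with a median of -2.37. Snap25, a synaptic vesicle fusion protein, had 0.144, 0.148 and 0.153 in Control culture, against 61.3, 65.2 and 62.6 in Control P10 (log2 difference -5.80, SE 0.10, adjusted p = 2.3e-12). Camk2b and Nrgn were higher, with mean values of 214 and 38.9 in culture and 69.7 and 13.7 in P10. Receptors and transporters of GABA and glutamate followed the lower side. Of 22 tested, 17 were lower and none higher, with a median of -2.87. Gabrb1 and Gabra4, subunits of the GABA-A receptor on which benzodiazepines act, had 67.2 and 45.2 in P10 on average. In culture, Gabrb1 was at 0, 0 and 0.177 and Gabra4 was listed at 0. Slc1a2, the glial glutamate transporter, had 2.36, 2.22 and 3.31 in Control culture, against 1747, 1486 and 1353 in Control P10 (log2 difference -8.72, SE 0.12, adjusted p = 2.1e-13). Slc1a3, its counterpart in radial glia, was also lower, at 387 on average in culture and 3158 in P10 (log2 difference -3.02, SE 0.09, adjusted p = 1.0e-09).

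Markers of glia had the lowest medians among the lists. All but 1 of the 25 tested astrocyte markers were lower (24), with a median of -5.30. Aqp4, the astrocyte water channel, had 0.0283, 0.058 and 0.15 in Control culture, against 996, 788 and 929 in Control P10 (log2 difference -9.71, SE 0.10, adjusted p = 2.5e-14). Apoe, the lipid carrier and the second most abundant transcript of the P10 libraries, had 80.5, 71.9 and 72.4 in Control culture, against 12134, 9784 and 10910.1 in Control P10 (log2 difference -7.17, SE 0.08, adjusted p = 6.9e-14). The exception was Acsbg1, a fatty acid ligase, at 480 on average in culture and 426 in P10.

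Oligodendrocyte genes were lower in the same way. Of 15 tested myelin genes 14 were lower (median -6.52), and of 16 precursor genes 14 were lower (median -5.33). Mbp, a major myelin protein, had 0.185, 0.11 and 0.114 in Control culture, against 776, 1566 and 773 in Control P10 (log2 difference -9.75, SE 0.22, adjusted p = 7.5e-12). Gpr17, a receptor of committed precursors, had 0.0277, 0 and 0 in Control culture, against 862, 1343 and 845 in Control P10 (log2 difference -9.94, SE 0.15, adjusted p = 3.9e-13). P10 replicate 2 was the highest for each of them, and the summed myelin list was 13038 there, against 5906 in the lowest P10 library. Pdgfra, the growth factor receptor of precursors, had 1.85, 1.96 and 2.08 in Control culture, against 372, 630.2 and 395 in Control P10 (log2 difference -7.26, SE 0.16, adjusted p = 1.0e-11). Leaving out P10 replicate 2 left the calls of Mbp, Gpr17 and Pdgfra in place.

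Vascular genes were also measured in the sorted cells. All 21 tested endothelial genes were lower in culture, and their list summed to 74.3 to 80.7 in culture and 1053 to 1116 in P10. Cldn5, the tight junction protein of brain vessels, was listed at 0 in culture and had 221, 185 and 198 in P10. Of 18 tested pericyte, smooth muscle and fibroblast genes 17 were lower, with sums of 80.1 to 96 in culture and 1845 to 2187 in P10. Rgs5, a pericyte marker, had 0, 0.0881 and 0.457 in Control culture, against 369, 345 and 430.5 in Control P10 (log2 difference -8.35, SE 0.14, adjusted p = 9.2e-13). The microglia list was low, and its 20 genes summed to 64.8 to 68.2 in culture and 131 to 156 in P10, and the receptor Cx3cr1 was listed at 0 in culture and averaged 4.59 in P10. Ttr, the choroid plexus carrier protein, varied widely between P10 libraries, at 0, 0.139 and 0.144 in Control culture, against 135, 8.63 and 742 in Control P10. Red blood cell genes summed to at most 1.37 in culture and 1.95 in P10, with Hba-a1 and Hbb-bs at 0 in P10. The part of these other cell types in the remaining differences was not tested.

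**Figure D3:**
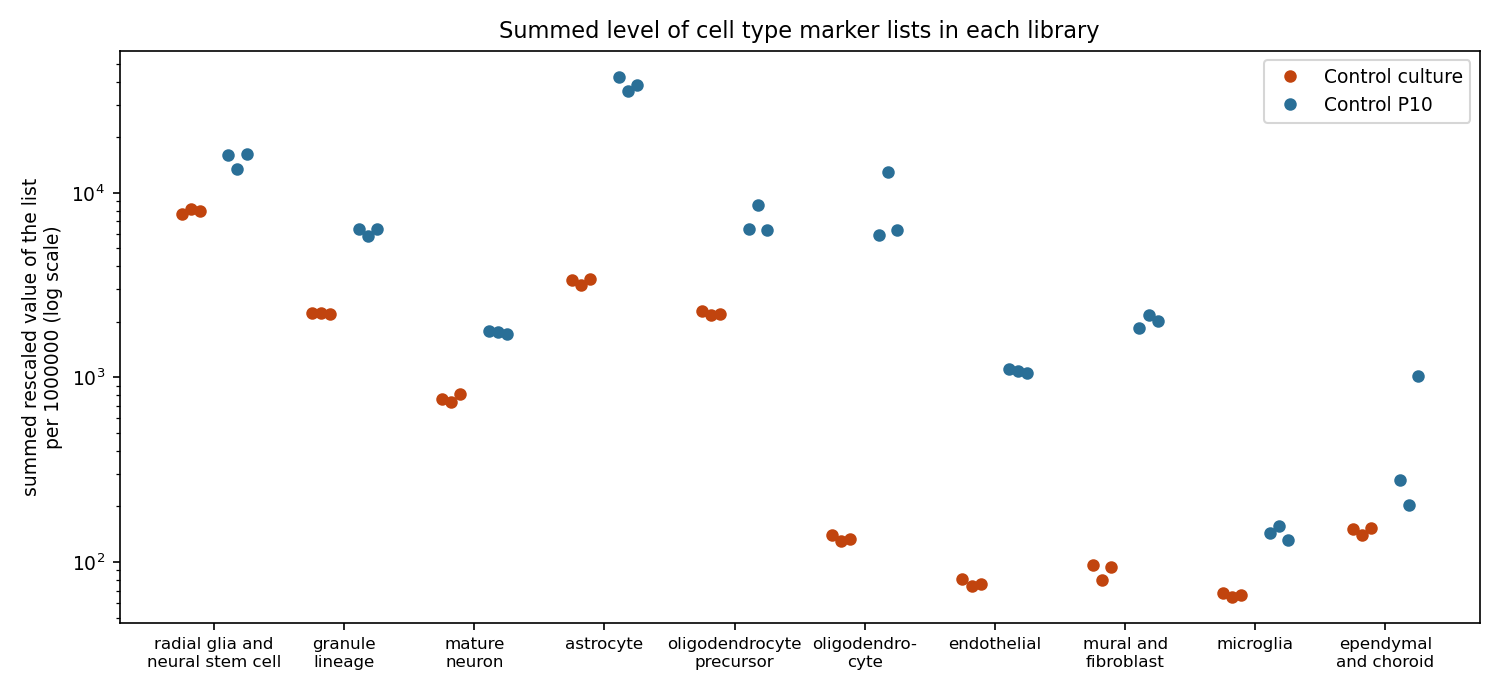
Summed rescaled level, on a log axis, of 10 cell type marker lists in each Control culture library (orange, left of each pair) and each Control P10 library (blue, right). Astrocyte markers sum to at most 3433 in culture and reach 42551 in P10, and myelin genes sum to at most 141 in culture and reach 13038 in P10.

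Genes of the dividing cell were higher in culture. Of 36 tested S phase and replication genes 26 were higher and none lower, with a median of 1.68 against -0.51 for all genes. Of 34 G2 and mitosis genes 22 were higher and none lower, with a median of 1.54. After median-of-ratios scaling these counts were 34 and 30. Ccne2, the cyclin E that starts S phase, had 41, 54.7 and 56.8 in Control culture, against 5.22, 4.21 and 4.86 in Control P10 (log2 difference 3.16, SE 0.13, adjusted p = 1.4e-08). Gins2, a part of the replicative helicase, had 134, 156 and 134 in Control culture, against 19.7, 20.1 and 18.5 in Control P10 (log2 difference 2.79, SE 0.08, adjusted p = 8.2e-10). Birc5, which encodes the mitotic protein survivin, had 207, 228 and 213 in Control culture, against 16.7, 17.8 and 20.7 in Control P10 (log2 difference 3.49, SE 0.08, adjusted p = 7.6e-11). Culture was higher in every library for these 3 genes. Mki67, the usual proliferation marker, had 83.8, 90.8 and 101 in Control culture, against 50.3, 47.7 and 59 in Control P10, and its difference of 0.80 (SE 0.09) did not exceed 2-fold, although it passed after median-of-ratios scaling at 1.28. Top2a and Mcm2 were higher by 1.67 and 1.74, and E2f1 (-0.11) and Foxm1 (0.16), regulators of these programmes, did not pass.

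Cell cycle genes are known to share promoter elements, the CHR element TTTGAA with nearby CCAAT boxes in G2 and mitosis genes, and E2F sites (searched as TTTCCCGC and TTTGGCGC) in S phase genes. These letters were sought on both strands of the RefSeq promoter windows (GRCm38.p6, 250 bases before to 50 after the start, the first entry of each gene). Windows were found for 9066 of the 11894 tested genes. TTTGAA was present in 22 of 29 G2 and mitosis promoters (75.9%), in 3 of 30 S phase promoters (10%), in 10.9% of all tested genes with a window and in 18.1% of all 27025 genes in the table. CCAAT was in 79.3% of the G2 and mitosis promoters and 39.2% of those tested. An E2F sequence was in 8 of 30 S phase promoters (26.7%), none of the G2 and mitosis promoters and 3.18% of those tested. Among all 772 higher genes with a window, 17% held TTTGAA and 3.89% an E2F sequence, and among 2584 lower genes 8.86% and 2.21% did. Different motifs overlapped in 1 G2 and mitosis promoter and in no S phase promoter. Windows of the 2 higher members of each list with the largest differences, among those that hold its motif and lie on other chromosomes than 18, show how the matches sit. They are printed 5′ to 3′, with CHR and CCAAT matches in capitals for Cdk1 and Plk1 and E2F and CCAAT matches for Mcm3 and Pola1.
Cdk1 promoter window, chr10:69352863-69353162, minus strand: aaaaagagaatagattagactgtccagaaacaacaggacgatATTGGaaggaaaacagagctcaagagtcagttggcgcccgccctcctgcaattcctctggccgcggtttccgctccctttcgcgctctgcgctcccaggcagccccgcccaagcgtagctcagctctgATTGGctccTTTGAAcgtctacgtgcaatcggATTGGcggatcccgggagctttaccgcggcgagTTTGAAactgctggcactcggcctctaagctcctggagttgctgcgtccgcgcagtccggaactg
Plk1 promoter window, chr7:122159185-122159484, plus strand: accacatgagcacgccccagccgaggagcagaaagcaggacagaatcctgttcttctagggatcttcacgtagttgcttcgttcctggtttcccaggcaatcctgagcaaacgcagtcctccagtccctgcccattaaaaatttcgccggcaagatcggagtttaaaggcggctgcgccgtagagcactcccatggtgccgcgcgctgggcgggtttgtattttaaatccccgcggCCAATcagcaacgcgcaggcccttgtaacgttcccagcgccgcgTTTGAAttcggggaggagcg
Mcm3 promoter window, chr1:20820263-20820562, minus strand: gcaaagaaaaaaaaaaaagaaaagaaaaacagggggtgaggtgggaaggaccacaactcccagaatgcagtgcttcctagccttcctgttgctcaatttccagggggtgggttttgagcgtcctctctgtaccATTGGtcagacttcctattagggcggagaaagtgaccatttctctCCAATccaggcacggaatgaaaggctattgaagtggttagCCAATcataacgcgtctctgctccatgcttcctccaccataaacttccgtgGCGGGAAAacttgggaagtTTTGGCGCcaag
Pola1 promoter window, chrX:93632106-93632405, minus strand: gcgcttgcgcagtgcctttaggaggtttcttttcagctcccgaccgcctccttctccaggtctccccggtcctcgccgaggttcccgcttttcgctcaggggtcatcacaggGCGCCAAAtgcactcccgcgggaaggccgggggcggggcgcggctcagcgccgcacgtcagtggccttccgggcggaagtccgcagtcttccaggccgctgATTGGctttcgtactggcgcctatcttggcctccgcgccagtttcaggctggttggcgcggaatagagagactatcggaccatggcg
Cdk1, the kinase that drives mitosis and whose window holds TTTGAA at 71 and 15 bases before the start, had 190.3, 216 and 207 in Control culture, against 29.2, 26.6 and 32.7 in Control P10 (log2 difference 2.75, SE 0.08, adjusted p = 1.6e-09). Plk1, the mitotic polo kinase, had 128, 126 and 127 in Control culture, against 25.9, 26 and 31.6 in Control P10 (log2 difference 2.16, SE 0.08, adjusted p = 6.9e-08). Its TTTGAA lies after the start. Mcm3, a helicase subunit whose E2F matches also lie after the start, had 179, 179 and 177 in Control culture, against 43.6, 43.9 and 47.3 in Control P10 (log2 difference 1.97, SE 0.06, adjusted p = 2.1e-08). Pola1, the DNA polymerase that makes primers, had 39.5, 42.5 and 44.7 in Control culture, against 9.46, 10.1 and 11.8 in Control P10 (log2 difference 1.92, SE 0.10, adjusted p = 3.0e-06). The windows of Cdk1, Plk1, Mcm3 and Pola1 were all chosen for their matches after the values were seen. Matches describe the letters and show no binding.

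Regulators of entry into the cell cycle were called in both directions. Of 27 tested G1 cyclins, CDK inhibitors and quiescence genes 7 were higher and 12 lower, and 10 and 7 after median-of-ratios scaling. Of all tested genes, 8.74% were higher and 29.2% lower as scaled here. Cdkn2a, the locus of the p16 and p19Arf inhibitors, had 65.4, 71.4 and 60.4 in Control culture, against 0.548, 0.255 and 0.647 in Control P10 (log2 difference 5.50, SE 0.13, adjusted p = 2.1e-11). The values do not separate its products. Cdkn2b, the neighbouring p15 gene, averaged 81.8 ± 3.93 in culture and 4.66 ± 0.558 in P10 (SD, n = 3 each) (log2 difference 3.87, SE 0.10, adjusted p = 7.3e-11). Cdkn1a, the p21 inhibitor, had 643, 570.4 and 582 in Control culture, against 13.2, 16.9 and 15.5 in Control P10 (log2 difference 5.21, SE 0.09, adjusted p = 1.8e-12). All 3 were at low levels in every P10 library. Ccnd1, the cyclin of growth factor signalling, reached 1305, 1212 and 1326 in Control culture, against 101, 129.7 and 98.9 in Control P10 (log2 difference 3.54, SE 0.09, adjusted p = 1.8e-10). Ccnd2, Ccnd3 and Myc were the other higher members. The lower ones included Cdkn1c and Cdkn1b, the p57 and p27 inhibitors of resting progenitors, with differences of -3.81 and -1.40. Foxo6 differed by -4.40 (SE 0.14).

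More targets of the tumour suppressor p53 were higher than lower. Of 20 tested, 11 were higher and 2 lower, with a median of 1.74. Trp53 itself, which is regulated mainly at the protein level, had 122, 119 and 118 in Control culture, against 114, 99.3 and 110.3 in Control P10 and did not pass (0.15, SE 0.07). Pmaip1, the apoptosis protein Noxa, had 50, 53.7 and 50.6 in Control culture, against 1.08, 0.984 and 0.705 in Control P10 (log2 difference 4.77, SE 0.11, adjusted p = 3.0e-11). Eda2r, a death receptor family member, had 81.2, 78.1 and 86.4 in Control culture, against 3.28, 3.06 and 3.67 in Control P10 (log2 difference 4.26, SE 0.09, adjusted p = 2.1e-11). Fas, a death receptor, averaged 31.3 ± 2.52 in culture and 2.16 ± 0.403 in P10 (SD, n = 3 each) (log2 difference 3.36, SE 0.12, adjusted p = 4.1e-09). Mdm2 (0.28), Bbc3 (-0.75) and Zmat3 (0.66), also p53 targets, did not pass. The 2 lower members were Gadd45b and Gadd45g, which other stress and immediate early pathways also control.

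**Figure D4:**
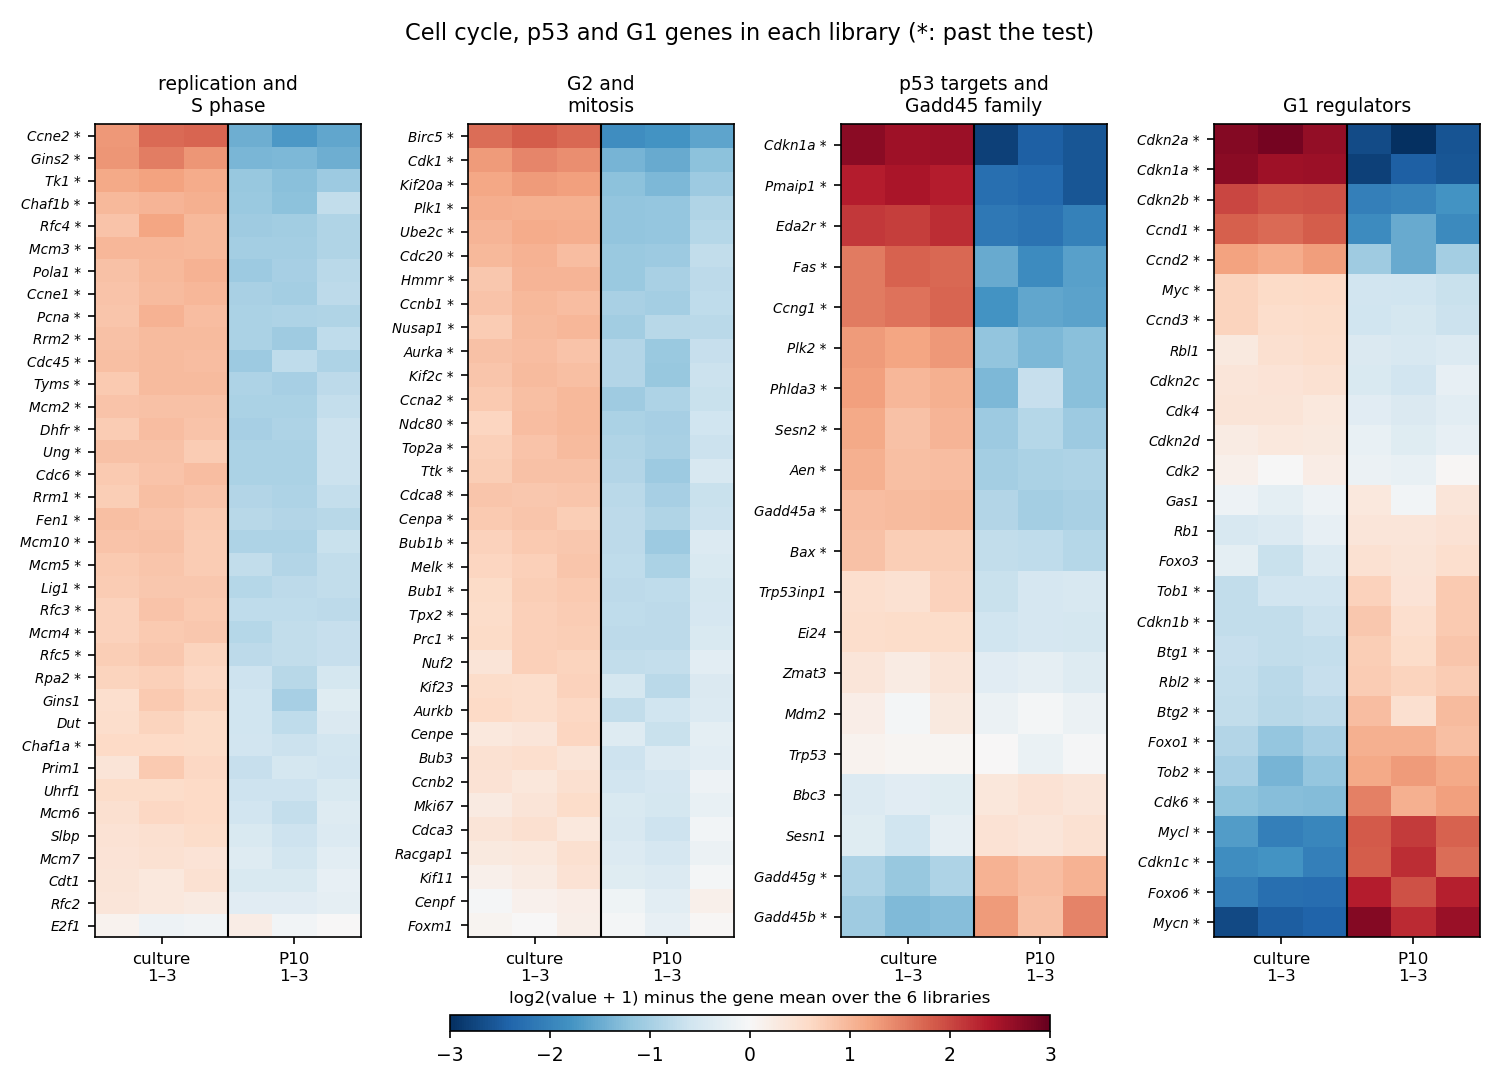
Each row is a gene and each column a library, Control culture 1 to 3 at left and Control P10 1 to 3 at right. Colour is log2(value + 1) minus the gene's mean over the 6 libraries, limited to 3 either way, and an asterisk marks genes past the test. Cdkn2a, Cdkn1a and Cdkn2b, with differences of 5.50, 5.21 and 3.87, are higher in culture in every library, as are most S phase and mitosis genes.

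Receptors and feedback genes of the growth factors in the medium were lower about as often as all tested genes (29.2%). They were higher more often than all tested genes (8.74%). Of 23 tested EGF, FGF and MAP kinase feedback genes 4 were higher and 7 lower, and 5 and 4 after median-of-ratios scaling. Egfr, the receptor of EGF, had 83, 80 and 96.7 in Control culture, against 74.1, 55.2 and 60.6 in Control P10, and its difference of 0.45 (SE 0.11) did not pass. The FGF receptors Fgfr1, Fgfr2 and Fgfr3 were lower, and Fgfr3 had 20.9, 21.1 and 19.4 in Control culture, against 666, 575 and 531 in Control P10 (log2 difference -4.78, SE 0.08, adjusted p = 2.7e-12). With Control 8w as the sorted cells, the difference of Fgfr3 was -0.13 (adjusted p = 1), and 6 genes of the list were higher and 2 lower, with a median of 2.25. Of all 11609 genes tested there 6.56% were higher and 14.2% lower. The genes higher than in P10 were Dusp6, Dusp5, Etv5 and Etv1, phosphatases and transcription factors induced by MAP kinase signalling. Dusp6 had 538, 495 and 540.2 in Control culture, against 108, 113 and 112 in Control P10 (log2 difference 2.23, SE 0.06, adjusted p = 1.7e-09). Spry1, Spry2, Spred1 and Dusp4, other feedback genes, did not pass, and Tgfa, an EGF receptor ligand, was lower, with a difference of -4.55.

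Immediate early genes, which cells switch on within minutes of stimulation and of tissue handling, were lower in culture. Of 23 tested, 15 were lower and 1 higher, with a median of -2.43. Fos had 21.8, 19.5 and 25.1 in Control culture, against 1609, 1319 and 1585 in Control P10 (log2 difference -6.02, SE 0.10, adjusted p = 1.1e-12). Fosb had 0.619, 0.396 and 0.493 in Control culture, against 299, 254 and 289.5 in Control P10 (log2 difference -7.55, SE 0.10, adjusted p = 1.9e-13). Both AP-1 subunits were high in every sorted library. Egr1, the factor studied elsewhere in the series, had 420.3, 330.5 and 394 in Control culture, against 746, 627 and 766 in Control P10. Its groups did not overlap, but the difference of -0.90 (SE 0.10) was within 2-fold, and it passed after quantile normalization at -1.39. Klf10 was the higher member, at 117 on average in culture and 16 in P10.

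Developmental signalling pathways had more members lower than higher, as did all tested genes (29.2% lower and 8.74% higher). In each pathway the lower share exceeded that of all tested genes. For Notch, which keeps radial glia undifferentiated, 15 of 24 tested genes were lower and none higher, with a median of -2.18. Notch1, a receptor, had 28.9, 24.3 and 29.99 in Control culture, against 189, 154 and 175 in Control P10 (log2 difference -2.60, SE 0.10, adjusted p = 1.3e-08). Jag2, a ligand, and Heyl, a target, differed by -3.97 and -4.57. Hes1 and Jag1 did not pass. For BMP signalling and Id proteins, 8 of 16 were lower and none higher, with a median of -1.29. After median-of-ratios scaling 6 were lower. Bmp4, a ligand, was listed at 0 in culture and had 80.8, 122 and 81.7 in P10, and Id2, a target, differed by -3.74 (SE 0.07).

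For Wnt, 15 of 26 tested genes were lower and 3 higher, with a median of -1.36 against -0.51 for all genes. After median-of-ratios scaling 12 were lower and 3 higher. The higher genes were the ligands Wnt5a and Wnt5b and the receptor Fzd10, which averaged 30.5 in culture and 3.07 in P10. Axin2, a target of canonical Wnt signalling, had 13.6, 13.8 and 14.7 in Control culture, against 62.6, 50.7 and 61.4 in Control P10 (log2 difference -1.97, SE 0.09, adjusted p = 1.1e-06). Dkk3 differed by -6.83 (SE 0.11). For hedgehog, 7 of 12 were lower and 1 higher, with a median of -1.72. After median-of-ratios scaling 6 were lower and 1 higher. Gli1, the direct target of the pathway, had 0.72, 0.328 and 0.297 in Control culture, against 41.9, 30.8 and 36 in Control P10 (log2 difference -4.69, SE 0.15, adjusted p = 4.7e-10). Cdon, a coreceptor, was the higher gene, at 54 on average in culture and 17 in P10. With Control 8w in place of P10 and the same culture libraries, the medians of BMP and Id, Wnt and hedgehog genes lay above the median of all genes, by 0.21, 0.07 and 0.46.

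Genes of adhesion and the cytoskeleton were called in both directions. Of 30 tested actin, annexin and S100 genes 10 were higher and 7 lower, where 8.74% and 29.2% of all tested genes were. The lower share was thus no larger than that of all genes. Lgals1, the lectin galectin 1, had 2330.2, 2322 and 2191 in Control culture, against 60.1, 56.2 and 64.6 in Control P10 (log2 difference 5.22, SE 0.06, adjusted p = 1.9e-13). Tmsb10, an actin monomer binding protein, averaged 1229 ± 112 in culture and 116 ± 8.75 in P10 (SD, n = 3 each). S100a6, by contrast, had 1.34, 0 and 0 in Control culture, against 149, 185 and 162 in Control P10 (log2 difference -6.96, SE 0.27, adjusted p = 9.8e-10), and the contractile genes Tagln and Myl9 were lower too. Of 36 extracellular matrix and integrin genes 18 were lower and 1 higher (4 higher after median-of-ratios scaling). Hapln1, which links hyaluronan to proteoglycans, had 0, 0.0292 and 0.0302 in Control culture, against 244, 196 and 219.6 in Control P10 (log2 difference -7.75, SE 0.10, adjusted p = 2.1e-13). Timp1, an inhibitor of matrix proteases, was the higher gene, with 42.6 on average in culture and 3.38 in P10. Against Control 8w the matrix list had a median above that of all genes, by 0.23.

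Igfbp3, which binds insulin-like growth factors and is listed here among YAP and TEAD targets, had 1544, 1382 and 1532 in Control culture, against 20.8, 33.1 and 24.6 in Control P10 (log2 difference 5.80, SE 0.13, adjusted p = 1.4e-11). Members of the list were called in both directions. Of 21 tested, 3 were higher and 8 lower, where 8.74% and 29.2% of all tested genes were. The list median was 0.02 against -0.51 for all genes. After median-of-ratios scaling 9 were higher and 8 lower. Cyr61, a direct target, was lower, with a difference of -2.91, and Ctgf, another, differed by 1.10 and did not pass.

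Ribosomal protein genes were higher almost without exception. Of 43 tested, 42 were higher and none lower, with a median of 1.97. The list summed to 62441 to 67268 in the culture libraries and 14918 to 16078 in the P10 libraries, each of which totals 1000000. Rpl38 had 2677, 2909 and 2834 in Control culture, against 169.8, 177 and 196 in Control P10 (log2 difference 3.95, SE 0.07, adjusted p = 3.7e-12). Such genes have many near-identical copies, and the culture and sorted-cell tables treated copies differently, as the copies Rps27rt and Rpl34-ps1 had 1288 and 235 on average in culture and were listed at 0 in P10. The part of copy assignment in the ribosomal difference was not tested, and whether counting used strand is not given in the sources used here, so overlapping and antisense genes are uncertain too. With Control 8w as the sorted cells, 9 of 43 were higher.

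Of 32 nuclear genes of the respiratory chain 17 were higher and none lower (median 1.16), and 29 were higher after median-of-ratios scaling. Cox8a, a subunit of cytochrome oxidase, had 2134, 2022 and 1908 in Control culture, against 461, 419.5 and 429.9 in Control P10 (log2 difference 2.21, SE 0.06, adjusted p = 4.3e-09). Of 21 glycolysis and lactate genes 6 were higher and 7 lower, and 9 and 3 after median-of-ratios scaling. The lower share was close to that of all tested genes (29.2%), and the higher share was above theirs (8.74%). Ldha, lactate dehydrogenase, had 1027, 1018 and 1008 in Control culture, against 201, 205 and 220.4 in Control P10 (log2 difference 2.28, SE 0.06, adjusted p = 8.6e-10). Aldoc, the aldolase of astrocytes and radial glia, had 123, 126 and 113 in Control culture, against 2131, 1817 and 2015 in Control P10 (log2 difference -4.03, SE 0.07, adjusted p = 4.9e-12). Aldoa, the common aldolase, was higher by 1.23. Slc2a1 and Slc16a1, transporters of glucose and lactate, were lower, with differences of -1.47 and -1.82, and both are also vascular genes.

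Cholesterol synthesis genes were lower in culture than in the P10 cells. Of 25 tested, 14 were lower and none higher, with a median of -1.23, and 9 were lower after median-of-ratios scaling. Lss, lanosterol synthase, had 20.8, 19.4 and 20.3 in Control culture, against 111, 116 and 106 in Control P10 (log2 difference -2.40, SE 0.07, adjusted p = 2.4e-09). Msmo1, a later enzyme, had 164, 184 and 177 in Control culture, against 809, 794 and 763 in Control P10 (log2 difference -2.17, SE 0.06, adjusted p = 3.5e-09). This direction depended on the sorted cells used. In Control 8w, Lss was listed at 0 in each library and the list median lay 1.33 above that of all genes. Fewer genes were above 0 in Control 8w (11067 to 11291 of the kept genes) than in Control P10 (17138 to 17583). The part of this in the change of direction was not tested. Of 24 fatty acid genes 1 was higher, Acadl, and 7 were lower, among them Pdk4 (-4.75). The lower share was that of all tested genes (29.2%), of which 8.74% were higher. After median-of-ratios scaling 3 were higher and 3 lower.

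Of 17 hypoxia genes 1 was higher and 5 lower, shares near those of all tested genes (8.74% and 29.2%). Adm, adrenomedullin, had 138, 125 and 126 in Control culture, against 8.85, 9.03 and 9.73 in Control P10 (log2 difference 3.68, SE 0.08, adjusted p = 2.3e-11), while Vegfa, the vascular growth factor, was at 25.3, 23.6 and 25.7 in Control culture, against 494, 455 and 434 in Control P10 (log2 difference -4.16, SE 0.07, adjusted p = 2.3e-12). Of 22 amino acid stress genes 4 were higher, including Asns (2.19), and 3 lower, including Slc7a11 (-2.48). Of 23 antioxidant genes 6 were higher and 2 lower. For the amino acid stress and antioxidant lists, the higher share was above that of all tested genes and the lower share below it. Hmox1, heme oxygenase, had 156, 135 and 147 in Control culture, against 20.1, 22.5 and 19.6 in Control P10 (log2 difference 2.76, SE 0.08, adjusted p = 9.8e-10). Fth1, ferritin heavy chain, averaged 3014 ± 95.1 in culture and 516 ± 30.1 in P10 (SD, n = 3 each). After median-of-ratios scaling 8 amino acid stress genes and 12 antioxidant genes were higher. Of 14 chaperone genes 1 was higher, the mitochondrial Hspd1, a share near that of all tested genes, and none was lower. After median-of-ratios scaling 5 were higher.

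Antigen presentation and interferon genes had 8 of 21 tested higher and 3 lower, where 8.74% and 29.2% of all tested genes were. Isg15, an interferon-induced ubiquitin-like protein, had 67.7, 61.4 and 65.4 in Control culture, against 5.35, 2.69 and 6.45 in Control P10 (log2 difference 3.56, SE 0.20, adjusted p = 1.9e-07). Ifit1, another interferon target, differed by 3.33 (SE 0.16). These calls did not all recur between Egr1 culture and MDZ P10, where 2 of 17 tested were higher and 4 lower (9.12% and 32.3% of all genes). Of 25 lysosome genes 1 was higher, Glb1, and 4 were lower, both smaller shares than those of all tested genes. Circadian clock genes were lower for 11 of 17 and higher for none. Per3 had 5.28, 3.98 and 5.6 in Control culture, against 64, 54.5 and 57.2 in Control P10 (log2 difference -3.33, SE 0.12, adjusted p = 3.0e-09).

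Imprinted genes were called in both directions. Of 19 tested, 5 were higher and 8 lower, where 8.74% and 29.2% of all tested genes were. Peg10, a paternally expressed gene of retrotransposon origin, had 283, 248 and 310.1 in Control culture, against 10.7, 8.88 and 11 in Control P10 (log2 difference 4.65, SE 0.10, adjusted p = 1.5e-11). Igf2, the fetal growth factor, had 0.595, 0.527 and 0.756 in Control culture, against 83.1, 111 and 122 in Control P10 (log2 difference -6.02, SE 0.14, adjusted p = 1.7e-11). Meg3 and Rian, maternally expressed noncoding RNAs of a shared domain, were listed at 0 in culture and averaged 21.7 and 22.6 in P10. Mest and Gnas were higher by 3.97 and 2.93. Of 35 Polycomb, DNA methylation and BAF complex genes none was higher and 11 were lower, close to the 29.2% of all tested genes, and after median-of-ratios scaling 3 were higher and 8 lower. Actl6b, the neuronal BAF subunit, was listed at 0 in culture and averaged 39.9 in P10.

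Sex chromosome genes differed between the P10 libraries. Xist, the RNA of the inactive X chromosome, had 84.7, 90.3 and 110.3 in Control culture, against 668, 0.777 and 0.369 in Control P10. Eif2s3y and Ddx3y, on the Y chromosome, were listed at 0 in every culture library and averaged 137 and 45.2 in P10. In P10 replicates 1, 2 and 3, Eif2s3y had 0.0439, 200.1 and 212, and Ddx3y had 0.134, 66.3 and 69.2. P10 replicate 1 thus had high Xist and Y genes near 0, and replicates 2 and 3 the reverse. The culture libraries, with Xist present and these Y genes at 0, were not matched in sex with P10 replicates 2 and 3. Xist did not pass as measured, and without P10 replicate 1 its difference was 5.94 (adjusted p = 2.9e-11). The calls of Eif2s3y and Ddx3y were lost without any library other than P10 replicate 1, with differences of -5.15 to -3.86 and -4.13 to -3.13.

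**Figure D5:**
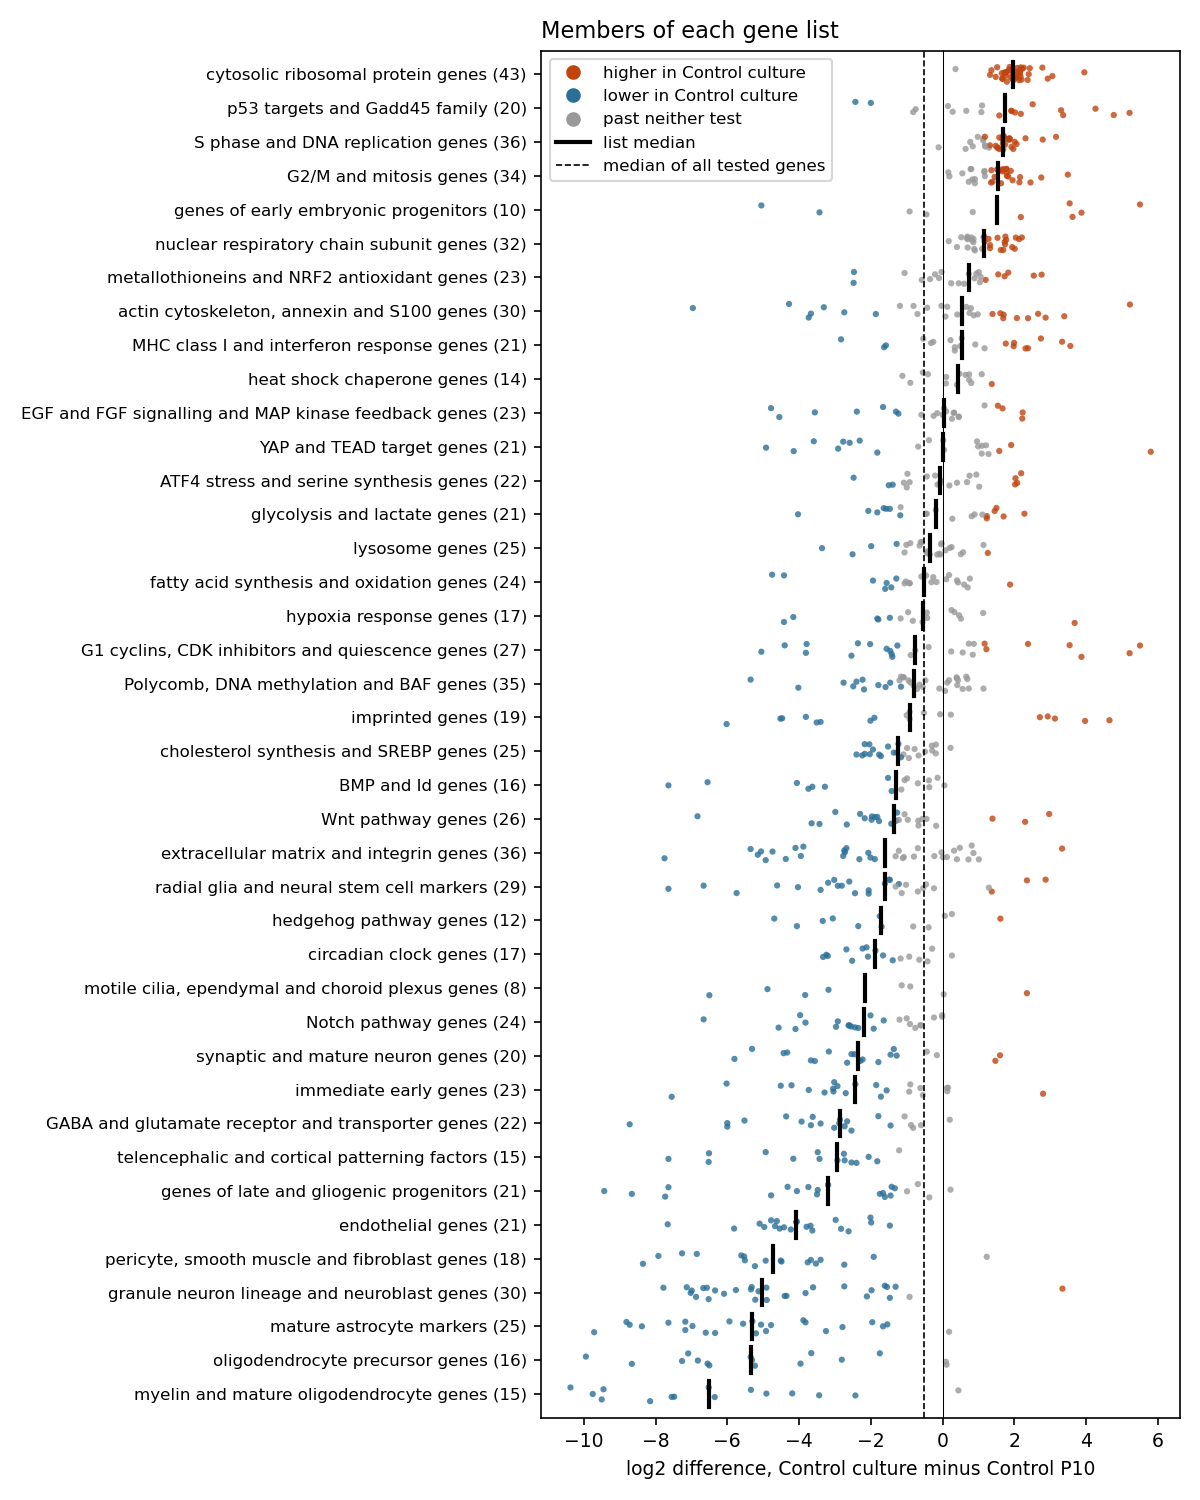
Log2 difference, Control culture minus Control P10, of each tested member of the lists with at least 8 tested genes, ordered by median (number tested in brackets). Orange points were higher in culture and blue points lower, black ticks are list medians, and the dashed line is the median of all tested genes. Medians run from -6.52 for myelin genes to 1.97 for ribosomal protein genes.

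The genes with the largest differences among those above 0 in some library of each group, predicted names left out, included members of no list. The 12 most increased of these held Schip1, Car3, Calca, Ubald2, Raet1e, Fdx1l and AA465934, beside Igfbp3, Cdkn2a, Lgals1 and Cdkn1a. Car3, a carbonic anhydrase of muscle and fat, had 128, 138 and 130.4 in Control culture, against 0.458, 1.14 and 1 in Control P10 (log2 difference 6.18, SE 0.14, adjusted p = 1.2e-11). Calca, which encodes calcitonin and the peptide CGRP, had 65.3, 66.9 and 69 in Control culture, against 0.309, 0.511 and 0.309 in Control P10 (log2 difference 5.63, SE 0.11, adjusted p = 4.5e-12). Raet1e, a ligand of the natural killer receptor NKG2D, had 38.3, 45 and 39.5 in Control culture, against 0, 0 and 0.157 in Control P10 (log2 difference 5.32, SE 0.12, adjusted p = 2.3e-11). All 3 were close to 0 in the sorted cells. Schip1 had 342, 345 and 372 in Control culture, against 2.23, 3.27 and 2.87 in Control P10 (log2 difference 6.55, SE 0.10, adjusted p = 7.1e-13). Schip1, Ubald2, Fdx1l, AA465934, Calca, Raet1e and Cdkn2a were also listed at 0 in all Control 8w libraries, which hold fewer genes above 0. The part of annotation in the differences of these genes was not tested. Rn4.5s, the twelfth gene, is a small RNA whose name the rule for small RNAs does not cover.

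Among the 12 most decreased, chosen in the same way, Mbp, Mag and Cldn11 are myelin genes, Gpr17 is a precursor gene, Aqp4, Slc7a10, Slc1a2 and Ntsr2 are astrocyte genes and Rgs5 is a pericyte gene. Miat, also among them, is a long noncoding RNA, with 0, 0 and 0.0172 in Control culture, against 392, 336 and 323 in Control P10 (log2 difference -8.44, SE 0.10, adjusted p = 6.8e-14). Of the called genes, 33 were listed at 0 in all P10 libraries and 128 in all culture libraries. The most abundant at 0 in P10 were Rps27rt, Rplp2-ps1, Dynlt1c, Atp6v0c-ps2, Rnaset2a and Rpl34-ps1, which are copies of other genes. Dynlt1c had 1003, 1046 and 946 in culture. The most abundant at 0 in culture were Sox10, Vtn, Mobp, Cldn5, Tac2 and Tmem163, which are mostly markers of oligodendrocytes and vessels. Tac2, a tachykinin neuropeptide gene, had 137, 102 and 205 in P10.

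The same comparison was made in 6 other libraries, Egr1 culture against MDZ P10. It shares no library with the first, though both compare the same cell sources and tables. It gave 1088 higher genes (9.12%) and 3859 lower genes (32.3%) among 11934 tested. Of the 1039 higher genes, 1013 were tested there and 810 were again higher, and of the 3478 lower genes 3416 were tested and 3120 were again lower, while 2 passed in the opposite direction. Cdkn2a, Cdkn1a and Igfbp3 differed by 5.47, 5.57 and 4.27 there, and Aqp4 and Eomes by -9.46 and -6.07. Calb2, a marker of immature granule neurons, was lost from the lower genes, with a difference of -0.63. It had 1.58, 1.04 and 1.31 in Control culture and 191, 158 and 156 in Egr1 culture, against 303, 265 and 306 in Control P10 and 260.4, 228 and 293 in MDZ P10.

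Set against Control 8w with the same culture libraries, 761 genes (6.56%) were higher in culture and 1648 (14.2%) lower. Of the 1039 higher genes, 1038 were tested there and 379 were again higher. Of the 3478 lower genes, 2958 were tested and 1343 were again lower. Opposite signs were found for 324 of these genes, and 25 passed in the opposite direction. Among the genes chosen for naming, 42 lost their call with the same sign. Fgfr2, Tm7sf2, Msmo1 and Slc16a1 lost theirs with a changed sign, and Lss passed in the opposite direction. Granule lineage genes were lower for 27 of 30 tested and astrocyte markers for 11 of 22, with 2 higher. Of the S phase genes 5 of 36 were higher, of the G2 and mitosis genes 12 of 34 and of the p53 targets 3 of 21, with 3 lower. Cdkn2a differed from Control 8w by 6.06, Cdkn1a by 4.06 without passing (adjusted p = 0.068), and Prox1 and Mbp by -5.50 and -5.28.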

How the data were processed

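Poly(A) RNA was sequenced (Dynabeads mRNA DIRECT Micro kit and NEBNext Ultra Directional libraries, per the labels' protocols). The authors deposited gene values whose units were read from the values: TPM for the cultures and Control 8w, since each column sums to about 1000000, and FPKM for Control P10 and MDZ P10, whose deposited totals were 241507.6 to 252343.9. The build mm10 and the tools TopHat, Bowtie2 and DESeq2 are listed in the submitters' processing notes with no role. The parameters, the gene annotations and the strand setting were not given in the sources used.

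Names in both tables were kept, small RNA names (Mir, Snor, Scarna, Rnu, Rn7s, Rn45s) dropped, columns rescaled to 1000000 and log2(value + 1) computed from the deposited values. Genes with a mean of at least 5 were tested with limma-trend and treat against 2-fold (Benjamini-Hochberg adjusted p below 0.05). The code was tested on simulated data. The alternatives tried were the scaling, the pseudocount, the filter, the small RNA rule, mitochondrial and histone genes, the null of no change, array weights, the replicate block, other libraries and leaving out each library. Counts and depth are unknown, so no counting intervals are given.

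The genes named are the 12 with the largest differences each way (not predicted names or genes at 0 in a group), the 6 most abundant at 0 in either group, 25 set genes such as Nes and Sox2, and the 4 members of each list with the largest differences past the test. Others, such as members that did not pass, were chosen after their values were seen. A few genes of the rule are not reported here. The members and lists were chosen with earlier results of these data known. R 4.3.3, limma 3.58.1, Python 3.11.15, pandas 2.3.3 and matplotlib 3.10.9 were used.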

Additional observations from a re-analysis of the deposited data

How the results depend on the processing

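The counts of higher and lower genes were 1903 and 2526 after median-of-ratios scaling, 2006 and 1942 after quantile normalization, 3411 and 7121 in a test against no change, and 761 and 1648 with Control 8w as the sorted cells. They ranged from 977 to 1072 and from 3169 to 3593 as each library was left out, and were 1054 and 3486 with the replicate block. Samples of the same number did not deviate together (correlations of 0.1, -0.007 and -0.007), so the numbers do not pair the samples. With the other pseudocounts, filters, gene rules and library weights, and in the 6 other libraries, both counts stayed within 1.5 times. List medians below are minus the median of all genes. Fabp7 turned to 0.02 after median-of-ratios scaling, and chaperone and lysosome genes to -0.00 and -0.45 after quantile normalization. Midbrain, hindbrain and dorsal factors turned to 0.15 with no filter. Between Egr1 culture and MDZ P10 they turned to 2.87, hypoxia genes to 0.18 and Egr1, which those cultures carry as a transgene, to 0.68. With Control 8w, ependymal genes turned to 3.70, BMP and Id genes to 0.21, Wnt to 0.07, hedgehog to 0.46, matrix to 0.23, cholesterol to 1.33 and chaperone genes to -0.24. Single genes that turned there were Fgfr2 (0.12), Lss (4.40), Tm7sf2 (3.13), Msmo1 (0.52), Slc16a1 (1.57), Fabp7 (2.74) and Xist (-1.20). The ventral list lay between -2.36 and 0.73 as each library was left out. It was at 0.49, 0.73 and 0.49 without P10 replicate 1, 2 and 3. Its tested members varied, since the filter was applied anew each time. When a P10 library was left out, Dlx1 and Dlx2 fell below the mean of 5 and were not tested. The cause of the other changes was not tested. Sox2 lost its call without culture replicate 1 or 2 or P10 replicate 1 or 3, at -1.17 to -1.22. Depth is unknown, so the smallest detectable level cannot be given.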

Other observations

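Ependymal and choroid plexus genes were uneven. Of 8 tested 1 was higher in culture, Rsph1, and 4 were lower, and the list summed to 140 to 152 in culture and 203 to 1018 in P10. Rsph1, a protein of motile cilia, had 113, 108 and 119 in Control culture, against 15.5, 21.8 and 28.8 in Control P10 (log2 difference 2.35, SE 0.16, adjusted p = 8.6e-06). Snrpn, an imprinted splicing gene, was low in culture replicate 3 alone, with 26.7, 27.7 and 1.32 in Control culture, against 0.262, 0.853 and 0.169 in Control P10.

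Differences were spread over the chromosomes. The median difference of the 11319 tested genes with a chromosome lay between -0.61 on chromosome 1 and -0.31 on the X chromosome, apart from the Y chromosome with 4 genes.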
